A study of Homo sapiens and Mus musculus with 20 samples.

Results

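The genes described here encode 10 cytokine receptor chains, IL7R, IL6ST, IL1R1, LIFR, OSMR, IL4R, IL13RA1, IL11RA, IL6R and IL1RL1, and they were followed by gene symbol in 12 RNA-seq libraries of the IMR90 line, fibroblasts of human fetal lung with a finite lifespan. The set was selected with measured values of these data in view, above all the loss of IL7R reads after A485, so its A485 values are a description with no test. The 3 IMR90 tables together listed 17554 genes, and 9 of the 10 receptors were listed in all of them. IL1RL1, the receptor for IL-33, is not listed in the tables analysed here. Each experiment had 2 treated and 2 untreated libraries with its own numbered control: A485, an inhibitor of the acetyltransferase p300, against Control2; MS-275, which blocks the class I histone deacetylases, against Control3; and pyruvate against Control6. All cells were wild type and all groups shared the same line, which stands for 1 donor tissue. The study's text places the pyruvate treatment in senescent IMR90 cells, whereas the sample labels give no passage or senescence state for any group. Nothing states that replicates came from separate cultures, so the p-values measure the spread between these libraries, which may be technical. Values are normalised read counts, that is, reads per gene divided by a size factor for each library.

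Cytokine receptors are assembled from separate chains, some that bind the ligand and some that carry the signal. IL6ST, also called gp130, is the signal chain shared by receptors for IL-6, IL-11, LIF and oncostatin M. It works with the ligand-binding chains IL6R and IL11RA or with the signalling partners LIFR and OSMR. IL7R binds IL-7 together with the common gamma chain and binds TSLP together with CRLF2, and it is best known in lymphocytes. IL4R and IL13RA1 form the receptor through which cells outside the blood lineage answer IL-4 and IL-13. These chains signal through JAK kinases and STAT factors, whereas IL1R1 joins IL1RAP and recruits MYD88 and IRAK kinases. In senescent fibroblasts, IL-1 and IL-6 are known as prominent secreted signals.

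Depth, recovered from the spacing of the values, ran from 24179065 to 46971227 reads per library, of which mitochondrial genes took 2.77 to 6.90%. All 10 fibroblast markers were listed in each experiment, led by fibronectin (FN1). Their summed level was 43061 and 46657 RPM (reads scaled to the library's listed reads) in the Control2 libraries and 16739 and 18527 RPM in the A485 libraries. In the MS-275 experiment it ran from 21365 to 45609 RPM in Control3 and from 16665 to 40441 RPM in treated libraries. Of 10 T lymphocyte markers only CD4 was listed, at 65.8 to 70.3 RPM in Control2 and 89.2 to 117 RPM after A485, and at 151 to 165 RPM in Control6 and 52.6 to 52.7 RPM after pyruvate. CD3D, CD3E, CD3G, CD2 and PTPRC were not listed in any IMR90 table. Of 10 macrophage markers, 4 were listed in the A485 table, 3 in the MS-275 table and 0 in the pyruvate table, with none above 54.5 normalised reads. The pyruvate table was shorter, with 12013 genes against 16683 in the A485 table and 16417 in the MS-275 table. All of its genes had a mean of at least 10, so low genes may have been left out of it. A marker missing there is thus not shown to be absent from the cells. Epithelial markers, led by KRT18, with 5 of 10 listed in the A485 table, had a summed level of 65.3 to 66.1 RPM in Control2 and 39.7 to 46.0 RPM after A485. Endothelial markers were led by TEK. Of 10, 5 were listed in the A485 table, with sums of 13.5 to 28.0 RPM in Control2 and 5.38 to 7.22 RPM after A485, and 2 in the pyruvate table, with sums of 12.2 to 16.2 RPM in Control6 and 60.8 to 61.8 RPM after pyruvate. The part of these shifts in the receptor values was not tested.

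The receptors differed widely in level. In RPKM, that is, RPM per kilobase of transcript, IL6ST was the most abundant in Control2, at 81.2 ± 6.91 (mean ± SD, n = 2 libraries here and below), followed by OSMR at 42.3 ± 3.76, IL13RA1 at 36.8 ± 0.372 and IL7R at 34.2 ± 18.1. The libraries of IL13RA1 and IL7R overlapped, whereas IL1R1 (14.8 ± 3.15), IL4R (9.40 ± 0.284), LIFR (5.26 ± 1.08) and IL6R (3.51 ± 0.531) each lay below the gene before them in both libraries. IL11RA was lowest in Control2 at 0.184 ± 0.00858. In Control3 the first 5 genes, IL6ST, IL13RA1, OSMR, IL7R and IL1R1, overlapped each with the next, and IL6ST ranged from 21.6 to 102 between the replicate libraries. Control6 had another order, with OSMR at 26.6 ± 1.92 and IL4R at 21.7 ± 0.107 above IL13RA1 at 9.35 ± 0.849. IL7R was 1.81 ± 0.201 RPKM in Control6 against 32.4 and 18.2 in the Control3 libraries, and IL6ST was 2.74 ± 0.137 against 102 and 21.6. After pyruvate, IL7R was at 29.7, IL13RA1 at 40.6 and IL1R1 at 15.3, against Control3 means of 25.3, 32.6 and 22.1. These genes thus lay nearer to Control2 and Control3 after pyruvate than in Control6. OSMR and IL6R went the other way, at 84.1 and 1.603 after pyruvate against Control3 means of 31.4 and 3.39. After pyruvate IL6ST, at 22.7, and LIFR, at 0.785 against 0.437 in Control6, were also nearer to Control2 and Control3, though still below their means. IL6ST then lay between the 2 Control3 libraries. The tables were normalised separately and the experiments differ in cells and libraries, so these levels stand side by side and were not tested against each other.

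**Figure D1:**
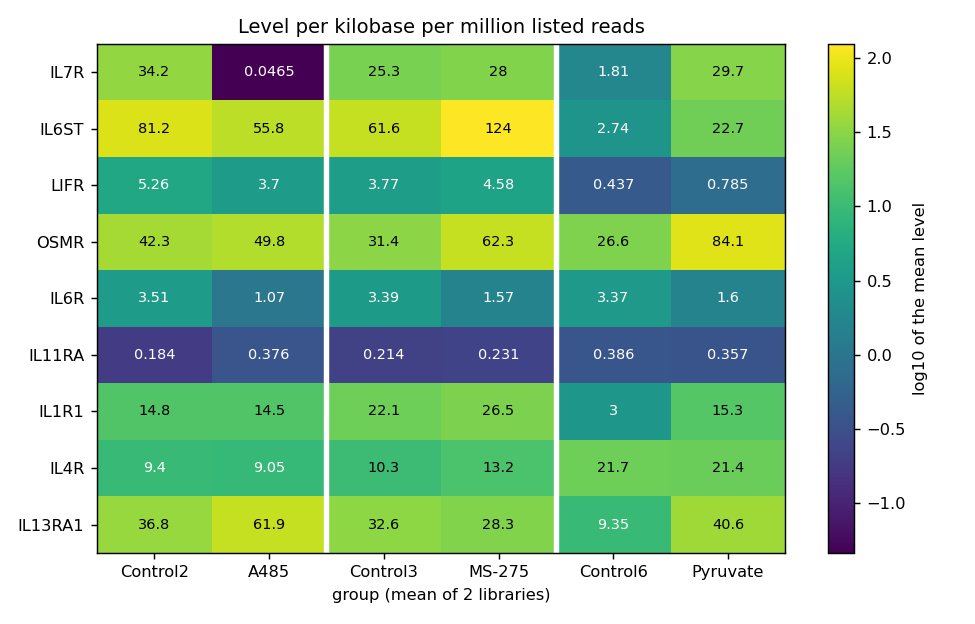
Mean level of 9 receptor genes (rows) in the 6 IMR90 groups (columns), in RPKM over the listed reads; colour is the log10 of the printed mean of 2 libraries, and white lines part the 3 experiments. IL7R drops to 0.0465 in A485 libraries, and IL7R and IL6ST are lower in Control6 than in the other controls.

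On hg38, IL7R lies on chromosome 5 from 35852695 to 35879603, and LIFR (38474668 to 38608354), OSMR (38845858 to 38945596) and IL6ST (55935095 to 55995022) lie on the same chromosome. LIFR and OSMR are 237504 bases apart. IL1R1 is on chromosome 2, IL4R on 16, IL13RA1 on X, IL11RA on 9 and IL6R on 1. OSMR overlaps RICTOR on the opposite strand, which reached 1992 normalised reads. IL11RA, whose own level was lowest in every group except A485, overlaps a protein-coding gene on the same strand with up to 31.2 reads. The strand setting of the counting is not stated, so such genes may share reads.

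Promoter sequences are shown for IL7R, IL6ST and IL6R, because with pyruvate IL7R and IL6ST rose and IL6R fell, as given further on. The longest run within the 250 bases before the RefSeq start (GRCh38.p14) that lies outside every GENCODE exon of the gene is printed 5′ to 3′ on the gene's strand, with CpG dinucleotides in capitals. The runs cover chr5:35856688-35856888 (plus strand) for IL7R, chr5:55995023-55995213 (minus strand) for IL6ST and chr1:154405093-154405192 (plus strand) for IL6R. The IL7R run lies inside the gene as GENCODE bounds it (from 35852695), whereas the IL6ST and IL6R runs lie before the start of theirs.
IL7R: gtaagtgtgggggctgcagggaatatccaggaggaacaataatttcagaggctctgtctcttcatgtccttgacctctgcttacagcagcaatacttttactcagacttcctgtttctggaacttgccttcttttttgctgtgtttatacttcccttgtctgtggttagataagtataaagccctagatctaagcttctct
IL6ST: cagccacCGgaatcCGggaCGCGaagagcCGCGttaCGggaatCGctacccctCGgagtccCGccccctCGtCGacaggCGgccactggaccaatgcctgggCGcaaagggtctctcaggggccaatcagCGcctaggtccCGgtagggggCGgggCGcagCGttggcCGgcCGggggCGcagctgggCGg
IL6R: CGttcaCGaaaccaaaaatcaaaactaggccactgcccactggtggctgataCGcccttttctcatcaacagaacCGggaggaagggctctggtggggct
The IL7R run of 201 bases held 0 CpG dinucleotides, the IL6ST run of 191 bases held 23 and the IL6R run of 100 bases held 4. Over whole windows of 250 bases before to 50 after the start, these counts were 0 for IL7R, 36 for IL6ST and 27 for IL6R. With both strands searched, 11 of the receptors' 17 windows (64.7%) had a match to GGGNNNNNCC, a form of the NF-kB motif, close to the 58.7% of 35116 RefSeq promoter windows that held one. The IL7R window held 1 match, beginning at position -185 relative to the start, within the run printed above. The AP-1 motif TGANTCA was found in 3 of the 17 windows, 1 each of OSMR, IL6R and IL1RL1, and in 7.71% of all windows. The STAT motif TTCNNNGAA was found in 3 of the 17, of IL1R1 and LIFR, and in 7.66% of all. The IL7R window held neither of these.

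After A485, IL7R reads were almost lost and IL6R was lower by the next largest amount, while the other receptors moved by less. IL7R measured 9310 and 4720 in Control2 replicates 1 and 2 and 9.27 and 5.34 in A485 replicates 1 and 2, from 11 and 6 reads in the latter. The group means were 7015 ± 3246 and 7.31 ± 2.78, and the size of the fold rests on these few reads: the log2 fold change of -9.68 with a pseudocount of 1 became -8.59 with a pseudocount of 10. IL6R, the ligand-binding chain for IL-6, measured 966 and 865 in control and 166 and 265 in A485 libraries, 23.5% of the control mean. IL6ST measured 29743 and 37264 in control and 13546 and 21700 after A485, or 52.6% of the control mean. LIFR, which pairs with IL6ST, measured 2047 and 3049 against 1337 and 1366, or 53.0%. In a bulk sample, fewer cells of a kind and less RNA per cell cannot be told apart.

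The remaining receptors were closer to control. IL4R measured 1439 and 1668 in control and 953 and 1335 after A485. IL13RA1, its partner, was higher in both A485 libraries, at 8139 and 9889 against 6702 and 7338. IL11RA was also higher, at 39.6 and 34.7 against 23.5 and 24.5. IL1R1 libraries overlapped, at 2308 and 2909 against 2815 and 4235. OSMR overlapped too, at 7263 and 11988 against 9460 and 11914, and its log2 fold change of -0.19 became 0.21 with equal library totals. By libraries, 2 receptors were higher and 5 lower without overlap, beside 30.4% and 30.7% of the 16084 genes tested. In log2(value + 1), the fold changes were -9.68 for IL7R, -2.12 for IL6R, -0.96 for IL6ST, -0.89 for LIFR, -0.46 for IL4R, 0.36 for IL13RA1 and 0.61 for IL11RA. When each library was scaled to the same total, the median log2 fold change over all genes went from 0.01 to 0.40. The receptors then had -1.73 for IL6R, -0.56 for IL6ST, -0.49 for LIFR, -0.06 for IL4R, -0.02 for IL1R1, 0.75 for IL13RA1 and 0.99 for IL11RA, and quantile normalization put IL6ST at -0.32 and IL13RA1 at 0.65. At the call limits used for all genes (adjusted p under 0.05 and an absolute log2 fold change above 1), 2 receptors were called lower and 0 higher, where 7.06% of all genes were called lower and 3.31% higher. Because IL7R was selected on this contrast, nothing is read from these counts. When any 1 of the 4 libraries was left out, the IL6R value no longer met the limits, with log2 fold changes from -2.45 to -1.79, and IL7R stayed between -10.2 and -9.19.

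**Figure D2:**
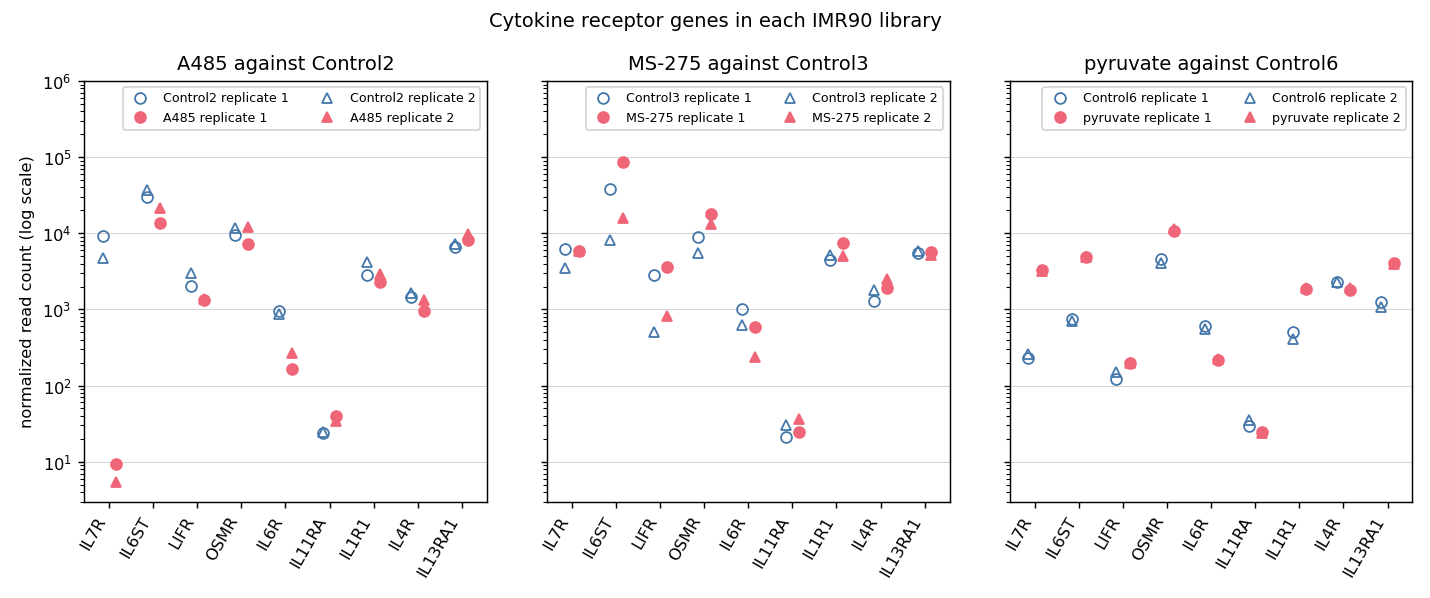
Normalised read count (log scale) of 9 receptor genes in each of the 12 IMR90 libraries, 1 panel for each experiment; open blue symbols are control libraries, filled red symbols treated libraries, circles replicate 1 and triangles replicate 2. IL7R stands at 9310 and 4720 in Control2 and at 9.27 and 5.34 after A485, and in the pyruvate panel the replicates of each group lie close together.

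With MS-275, no receptor passed the test, which was fitted without the replicate number, and the control libraries themselves differed strongly. IL6ST measured 38418 in Control3 replicate 1 and 8078 in replicate 2, a 4.76-fold ratio, and LIFR measured 2831 and 500, a 5.66-fold ratio. The treated libraries were split in the same way, with IL6ST at 86286 and 15796 and LIFR at 3579 and 825 in MS-275 replicates 1 and 2. Libraries were therefore also compared within their replicate number, although no label states that the number marks a shared culture. Within numbers 1 and 2, IL6ST was 2.25-fold and 1.95-fold higher after MS-275, and LIFR 1.26-fold and 1.65-fold higher. OSMR, the oncostatin M chain, was 2.02-fold and 2.43-fold higher within the numbers. Its values were 18192 and 13415 after MS-275 against 8994 and 5510 in control, so its groups did not overlap.

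IL6R went the other way, at 593 and 235 after MS-275 against 1001 and 631, which is 1.69-fold and 2.68-fold lower within the numbers. IL4R measured 1917 and 2484 against 1297 and 1801, higher in both treated libraries than in both controls. IL11RA was low throughout, at 24.2 and 36.9 against 20.8 and 30.3. The other receptors did not keep one direction. IL7R measured 5927 and 5875 after MS-275 against 6214 and 3462, so that number 1 was 1.05-fold lower and number 2 higher, by 0.76 on the log2 scale. IL1R1 measured 7524 and 5060 against 4400 and 5134, and IL13RA1 measured 5674 and 5230 against 5505 and 5885. In all, 6 of 9 receptors kept their direction within both numbers (5 higher, 1 lower), beside 79.0% of the 15883 genes tested, and 3 of 9 did not overlap between groups, beside 38.9% of all genes.

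By limma without the replicate number and with Benjamini-Hochberg adjustment, the MS-275 log2 fold changes were 1.07 for IL6ST (95% interval -1.81 to 3.94), 1.15 for OSMR (0.14 to 2.16; adjusted p 0.394) and -1.09 for IL6R (-2.57 to 0.40; adjusted p 0.619). IL7R had 0.35, with an interval from -0.68 to 1.37 and an adjusted p of 0.882, so that a change of either sign is within the error. The intervals of IL1R1 (-0.52 to 1.28), IL4R (-0.40 to 1.43) and IL13RA1 (-0.81 to 0.69) likewise spanned 0. Of all 15883 genes 0 were called by limma (0% of genes), and 1730 had an unadjusted p under 0.05, OSMR alone among the receptors. One limma fit over all 12 libraries called 488 genes and 0 receptors. With the replicate number as a block, limma called 2183 genes and 3 receptors (IL6ST, OSMR and IL6R), although no label pairs the libraries.

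**Figure D3:**
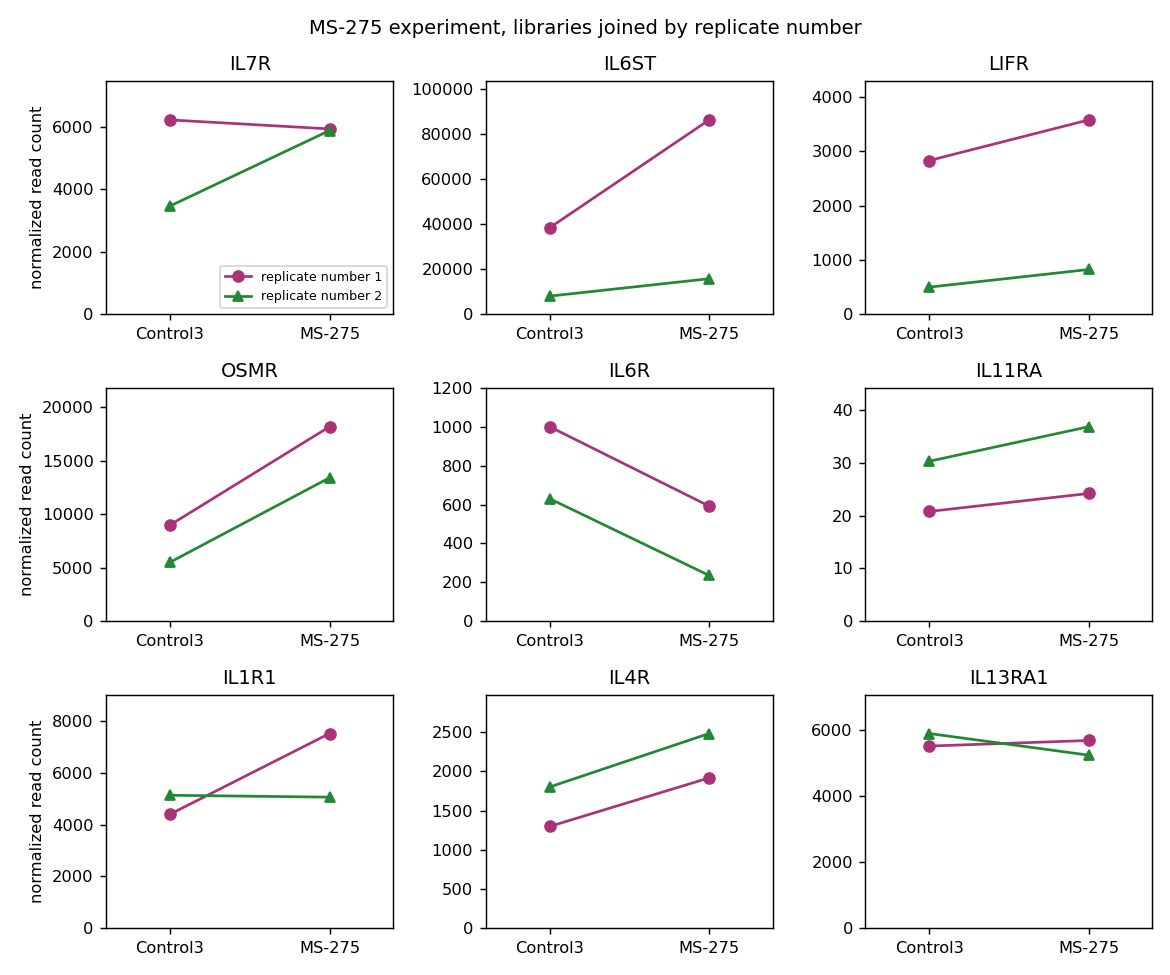
Normalised read count of 9 receptor genes in the MS-275 experiment, with the Control3 and MS-275 libraries of the same replicate number joined by a line (circles number 1, triangles number 2; each axis starts at 0). The lines of IL6ST, LIFR, OSMR, IL4R and IL11RA run upward and those of IL6R downward in both numbers, while those of IL7R, IL1R1 and IL13RA1 part.

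With pyruvate, 5 receptors rose, 1 fell, and the libraries of each group lay close together. IL7R rose most, from 227 and 264 in Control6 to 3266 and 3206 after pyruvate, a 13.2-fold difference of means. IL6ST went from 757 and 701 to 4854 and 4886, and IL1R1 from 507 and 412 to 1881 and 1891. The shared gp130 chain and the signalling receptor for IL-1 thus rose in both libraries. IL13RA1 went from 1235 and 1079 to 4110 and 3975, and OSMR from 4584 and 4112 to 10851 and 11272. IL6R fell from 599 and 549 to 217 and 223. In all of these the treated libraries lay apart from the control libraries by much more than replicates differed. IL4R measured 2319 and 2320 in Control6 and 1775 and 1921 after pyruvate, LIFR measured 124 and 149 against 197 and 198, and IL11RA 29.5 and 35.8 against 24.6 and 24.0. None of the 9 receptors overlapped between groups, 6 being higher and 3 lower, beside 45.2% and 45.3% of the 12013 genes tested.

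The limma log2 fold changes with pyruvate were 3.72 ± 0.11 (SE, as below) for IL7R and 2.74 ± 0.08 for IL6ST, each with a Benjamini-Hochberg adjusted p of 2.06e-10. They were 2.04 ± 0.12 for IL1R1 (adjusted p 2.06e-08), 1.81 ± 0.09 for IL13RA1 (5.06e-09), 1.35 ± 0.07 for OSMR (7.67e-09) and -1.38 ± 0.15 for IL6R (3.78e-06). LIFR (0.54 ± 0.21, adjusted p 0.0361) and IL4R (-0.33 ± 0.08, adjusted p 0.00229) had adjusted p-values under 0.05 but did not reach the fold limit, and IL11RA (-0.40 ± 0.49, adjusted p 0.462) passed neither. Thus 5 of 9 receptors were called higher and 1 lower, where 31.0% of all genes tested were called higher and 23.1% lower. These 6 calls were also made when any 1 of the 4 libraries was left out, and the log2 fold change of IL7R then ran from 3.61 to 3.83.

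Fold changes in the pyruvate experiment followed the GC content of the transcripts. The median log2 fold change was 1.54 over 4514 genes with a transcript GC content under 45%, 0.06 over 2164 genes at 45 to 50% and -0.89 over 5210 genes above 50%. In the A485 experiment the medians of the first and last range were 0.11 and -0.09, and in the MS-275 experiment -0.0058 and -0.02. The receptors fall along the same axis. IL6ST (36.5% GC), LIFR (37.1%), IL7R (41.3%), IL13RA1 (43.1%), IL1R1 (44.5%) and OSMR (45.1%) had log2 fold changes above 0, and IL6R (51.2%), IL11RA (54.9%) and IL4R (57.7%) had values below 0.

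When a smooth trend on transcript length and GC content was removed from each library, IL7R (2.39), IL1R1 (1.32) and IL6ST (1.03) were still called higher. The median log2 fold change over all genes went from -0.01 to 0.20 by this removal. IL6ST lay above the fold limit of 1 by less than this shift of the median. OSMR (0.73), IL13RA1 (0.88) and IL6R (-0.93) kept their sign and fell below the fold limit. LIFR changed to -1.23 and was then called lower, IL4R changed to 0.79 and IL11RA to 0.69. By this reckoning 3 receptors were called higher and 1 lower, where 21.2% of all genes were called higher and 10.2% lower. LIFR also changed sign, to -0.14, with quantile normalization. Whether the trend arose in the cells or in library preparation was not tested.

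**Figure D4:**
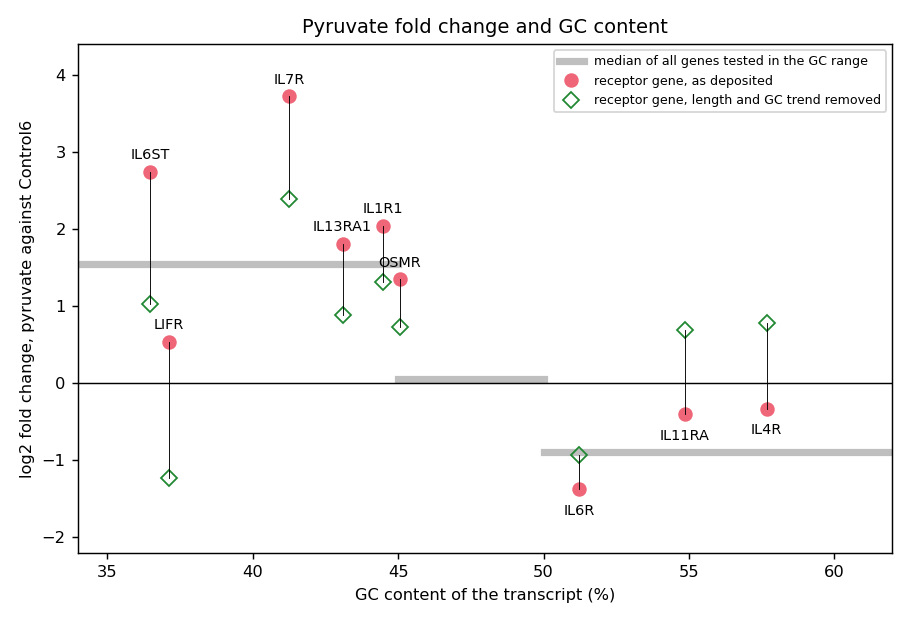
Log2 fold change of 9 receptor genes between pyruvate and Control6 libraries against the GC content of the transcript; filled circles are the values as deposited, open diamonds the values with the length and GC trend removed, and grey bars the median of all genes tested in each of 3 GC ranges (1.54, 0.06 and -0.89). IL7R, IL6ST and IL1R1 stay above 1 either way, IL6ST only just (1.03 with the trend removed, where the median over all genes is 0.20). LIFR, IL4R and IL11RA change sign.

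Pyruvate and MS-275 share no control libraries, so their effects on the receptors were compared directly in 1 limma fit over 8 libraries. IL7R rose by 3.37 ± 0.39 log2 units more with pyruvate than with MS-275 (adjusted p 0.00148). The difference was 1.87 ± 0.22 for IL13RA1 (adjusted p 0.00151) and 1.67 ± 0.33 for IL1R1 (adjusted p 0.00913). These 3 of 9 receptors passed an adjusted p of 0.05, beside 41.1% of 12005 genes tested in both experiments. The same 3 passed with the length and GC trend removed, where the differences were 1.99 for IL7R, 0.91 for IL13RA1 and 0.93 for IL1R1. LIFR then passed as well, at -1.72 (adjusted p 0.0472) where the main fit gave 0.0067. With any 1 of the 8 libraries left out, the difference ran from 2.95 to 3.795 for IL7R and from 1.77 to 1.97 for IL13RA1. It ran from 1.38 to 1.95 for IL1R1 and from -1.08 to -0.61 for IL4R. For IL6ST the difference was 1.67 ± 1.30 (adjusted p 0.331), and for IL4R it was -0.84 ± 0.32 (adjusted p 0.0719). OSMR and IL6R had like values in both experiments, with differences of 0.20 ± 0.38 (adjusted p 0.693) and -0.29 ± 0.64 (adjusted p 0.731), errors that leave room for differences of either sign. Treatment, cells and experiment cannot be told apart in this comparison.

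**Figure D5:**
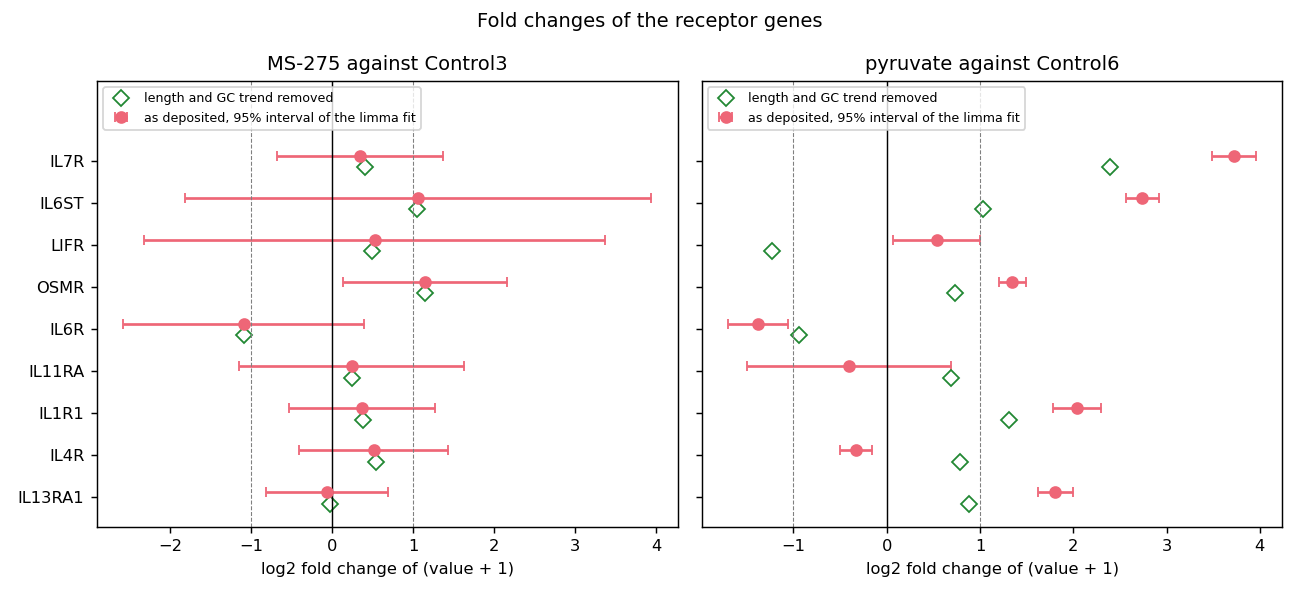
Log2 fold change of log2(value + 1) for 9 receptor genes with MS-275 (left) and pyruvate (right); red circles with bars give the limma estimate and its 95% interval, open diamonds the estimate with the length and GC trend removed, and dashed lines the fold limit of 1. The intervals are much wider with MS-275, where IL6ST runs from -1.81 to 3.94, than with pyruvate, where it runs from 2.56 to 2.92.

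The ligands, partner chains and signal relays of these receptors were followed in 6 lists with 87 genes. After A485, 9 of 72 tested list genes were called lower and 0 higher, beside the 7.06% and 3.31% of all genes given above. This contrast chose IL7R, so the list genes too are described without a test. The ligand LIF measured 4032 and 3673 in control and 131 and 420 after A485. CLCF1, another ligand that signals through gp130, measured 563 and 370 against 37.9 and 26.7, and TSLP, the second ligand of IL7R, 325 and 416 against 120 and 112. Of 13 tested feedback inhibitors 3 were called lower, among them SOCS1 at 455 and 602 against 86.8 and 59.7 and SOCS5 at 3841 and 5675 against 1909 and 1928. IL13RA2, a decoy for IL-13, and the receptors IL20RB and TNFRSF1B were the other calls beside SOCS2. TNFRSF1B measured 619 and 1323 against 100 and 157. With any 1 library left out, 1 to 4 list genes were called. None of the 10 JAK kinases and STAT factors and none of the 14 genes of the IL-1 relay was called, with median log2 fold changes of 0.07 and 0.18 where that of all genes was 0.01.

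With MS-275, 0 of 73 tested list genes were called in the fit without the replicate number, as for all genes. Among those with the smallest p, STAT5A measured 172 and 280 in control and 44.5 and 43.8 after MS-275 (log2 fold change -2.29 ± 0.44, limma adjusted p 0.231). EPOR, the erythropoietin receptor, measured 338 and 280 against 791 and 1096 (1.60 ± 0.36, limma adjusted p 0.266). IL27RA, a partner of IL6ST, measured 329 and 324 against 124 and 133, and IL1RAP, the partner of IL1R1, 478 and 420 against 891 and 768. The ligand CLCF1 measured 295 and 363 against 184 and 146. MYD88, the adaptor below IL1R1, measured 1987 and 2814 against 1031 and 1263. In each of these genes the treated libraries lay on one side of both controls, as 38.9% of all genes did. They were named for a small p, which favours such separation, so nothing is read from it. Others with the smallest p of their lists overlapped between groups. These were IL11 (955 and 2829 against 684 and 1244), IL6 (406 and 938 against 169 and 664) and IRAK1 (4074 and 5588 against 5326 and 7863).

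With pyruvate, 20 of 61 tested list genes were called higher and 14 lower, or 32.8% and 23.0%, close to the 31.0% and 23.1% of all genes. Among the ligands, 2 were called higher and 3 lower. IL6 rose from 152 and 125 to 317 and 352, and IL1B, a ligand of IL1R1, from 28.5 and 30.4 to 148 and 145. The ligand LIF fell from 5997 and 5716 to 1327 and 1383, CTF1 from 362 and 464 to 97.3 and 108, and TSLP from 334 and 299 to 94.4 and 110. IL1RAP rose from 44.2 and 41.2 to 206 and 160. JAK1, the kinase used by all of the gp130 receptors and by IL7R, rose from 2368 and 2260 to 8400 and 8671, while STAT6, which carries the IL-4 signal, fell from 8583 and 8306 to 3505 and 3561. STAT3, the main factor below gp130, measured 9133 and 8583 against 4389 and 4580, with a log2 fold change of -0.98 just short of the fold limit. The phosphatase PTPN11 rose from 740 and 668 to 4037 and 4208 and the feedback inhibitor SOCS5 from 68.8 and 86.8 to 493 and 587. In the IL-1 relay, TOLLIP fell from 4936 and 5062 to 1559 and 1514, IRAK1 fell from 6683 and 6631 to 3192 and 3173, and MAP3K7 rose from 255 and 299 to 1007 and 946. The receptors TGFBR1 (129 and 163 to 977 and 928) and IFNAR1 (361 and 373 to 1441 and 1444) rose, and TNFRSF1A fell from 10109 and 9647 to 4026 and 4253.

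With the length and GC trend removed, 15 list genes were called higher and 4 lower, or 24.6% and 6.56%, beside the 21.2% and 10.2% of all genes given above, and 9 and 2 of these kept the call and direction they had before. JAK1 (1.53), SOCS5 (1.22), PTPN11 (1.09), TGFBR1 (1.03), IL6 (1.42), IL1B (2.52), LIF (-1.06) and TSLP (-1.93) were among them. PTPN11 and TGFBR1 passed the fold limit by less than the shift of the median over all genes given above. CTF1 (-0.50), IL1RAP (0.75), STAT6 (-0.26), TOLLIP (-0.60), IFNAR1 (0.82), MAP3K7 (0.24) and TNFRSF1A (-0.24) were no longer called, and IRAK1 changed sign to 0.24.

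The genes whose pattern was most like that of IL7R were NTM, DCN, GREM1, HMGA2 and MYOCD. They were found among 11457 genes listed in all experiments with a mean of at least 100 in some group. Likeness was the Pearson r over the 12 libraries after the mean of each experiment was taken off. The A485 libraries, whose IL7R values selected the gene, hold its largest change and weigh most in this likeness, which is a description only. Over the 8 libraries of the other experiments, an alternative chosen after seeing the data, r ran from 0.921 to 0.971 for these 5 genes, and they ranked from 460 to 1675. The r was 0.983 for NTM, 0.981 for DCN, 0.980 for GREM1, 0.978 for HMGA2 and 0.976 for MYOCD. NTM, a neural adhesion protein, had a mean of 1914 in Control2 and 78.0 in A485 libraries and of 437 in Control6 and 1942 after pyruvate. DCN, the matrix protein decorin and one of the fibroblast markers, had means of 88885 and 3887 in the A485 experiment and of 21382 and 53625 in the pyruvate experiment. GREM1, a secreted antagonist of bone morphogenetic proteins, had 6421 and 277, and 478 and 1635. HMGA2, a chromatin protein, had 13961 and 560, and 1165 and 5243. MYOCD, a co-activator of smooth muscle genes, had 1218 and 7.68, and 22.3 and 429. Of the other receptors, 7 were compared and were less alike (IL11RA had no group mean of 100), with r from 0.16 for IL13RA1 to 0.50 for IL6ST, and the closest of them, IL6ST, ranked 1906.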

How the data were processed

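Bulk RNA was extracted from IMR90 cells with TRIzol and sequenced, and 12 libraries in 6 groups of 2 were used; the 8 muscle libraries were not used here. The authors trimmed reads with Trim Galore (0.6.10), aligned them with HISAT2 (2.2.1) to hg38, and used SAMtools (1.7), featureCounts (2.0.6) and DESeq2 (1.34.0), per the labels' processing notes and the study's methods. The signal deposited for each gene is its read count after division by the library's size factor, in 3 tables normalised separately. The annotation and strand setting are not given in the sources used here. In each library a value for 1 read was found that made all values whole multiples (100% within 0.01 read), and depths rest on it. A separate check of whole reads passed in all 4 libraries of the A485 experiment but not in all of the others.

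Values were tested as log2(value + 1), which understates the change of low genes, over genes with a mean of at least 10, with limma (3.58.1; eBayes with intensity trend, R 4.3.3) and Benjamini-Hochberg adjustment over all genes tested; a gene was called at adjusted p under 0.05 and an absolute log2 fold change above 1. All 9 listed receptors passed the filter in each comparison. Differences between effects were a limma contrast over 8 libraries at adjusted p under 0.05. Count tests (edgeR 4.0.16 and DESeq2 1.42.0) were run on recovered reads of the A485 comparison only. Lengths, GC content and positions came from GENCODE release 44 on hg38, promoters from RefSeq (GRCh38.p14; all 10 receptors matched). List genes named were, for each list and comparison, up to 3 with the smallest p whose higher group had a mean of 100 or more, and IL13RA2, IL20RB, IL6 and IL1B (with pyruvate) were named after their values were seen. The members, lists and tests were chosen with earlier results of these data known. Alternatives covered the pseudocount, filter, normalization, eBayes trend, replicate block, count tests, fold limit, a shared fit, a length and GC trend fitted by splines of 5 degrees of freedom, and leaving out each library. Other steps used Python 3.11.15 with pandas 2.3.3, scipy 1.17.1 and matplotlib 3.10.9.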

Additional observations from a re-analysis of the deposited data

Results flagged for a closer look

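The effects of pyruvate and MS-275 on 3 receptors differed by the test of the difference itself (limma contrast over 8 libraries, Benjamini-Hochberg adjusted). The difference in log2 units was 3.37 for IL7R (adjusted p 0.00148), 1.67 for IL1R1 (0.00913) and 1.87 for IL13RA1 (0.00151), each higher with pyruvate. By the same test 41.1% of 12005 genes differed, so nothing particular to the receptors is read from this count. With the length and GC trend removed the differences were 1.99, 0.93 and 0.91. Treatment, cells and experiment cannot be told apart here. The groups held 2 libraries each, so no library was screened as an outlier within its group.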

How the results depend on the processing

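Calls on the receptors rested on 2 libraries a group, and with 1 library left out the lone sample is assumed to vary like the other groups. The A485 count was 2 or 3 receptors under other settings, and 3 with the length and GC trend removed through IL6ST. The main fit called 1667 of all 16084 genes. With any 1 library left out, the log2 fold change of IL7R ran from -10.2 to -9.19 and that of IL6R from -2.45 to -1.79. This contrast chose IL7R, so these values are a description and nothing is read from the counts. For MS-275 the leave-one-out ranges of log2 fold changes crossed 0 for IL7R (-0.075 to 0.77), IL6ST (-0.16 to 2.29), LIFR (-0.72 to 1.78) and IL11RA (-0.052 to 0.54). Deviations of same-numbered libraries correlated at 0.32 for A485, 0.73 for MS-275 and 0.002 for pyruvate, with 2 pairs each and no label that pairs them. With the replicate block, MS-275 calls went from 0 to 3 receptors (IL6ST, OSMR and IL6R), also 3 with the trend removed, beside 2183 of all 15883 genes. Calls on list genes for MS-275 went from 0 to 11 of 73 (11 with the trend removed). For A485 they went from 9 to 15 of 72 (15), beside 1667 and 2486 of all 16084 genes. The differences between effects went from 3 to 5 receptors (5 with the trend removed), beside 4935 and 8949 of all 12005 genes. The replicate block left the 6 pyruvate calls and the 2 A485 calls.

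Removing the trend, with or without the block, turned the pyruvate log2 fold change of LIFR to -1.23, of IL4R to 0.79 and of IL11RA to 0.69, and quantile normalization that of LIFR to -0.14. It also cut the pyruvate list calls from 34 to 19 and put the median over all genes at 0.20. For the difference between effects, it turned IL6ST to -0.011, LIFR to -1.72, OSMR to -0.41, IL4R to 0.24, IL11RA to 0.45 and IL6R to 0.15, none of which but LIFR (and OSMR with the block) passed. LIFR, at 0.0067, also became -0.016 with a pseudocount of 10 and -0.71 with quantile normalization, and IL6R became 0.16 with equal library totals. Its leave-one-out ranges crossed 0 for LIFR (-1.24 to 1.26), OSMR (-0.15 to 0.55) and IL6R (-0.96 to 0.37). Without Control3 replicate 2 or MS-275 replicate 1, IL4R passed as well (4 receptors). List calls for A485 were 5 without the eBayes trend, 14 by DESeq2 and 1 to 4 with 1 library left out. List calls for MS-275 were 3 in 1 fit over 12 libraries and 0 to 1 with 1 library left out. Scaling to equal totals put the median over all genes at 0.40 for A485, -0.15 for MS-275 and 0.30 for pyruvate, and the share of higher calls from 31.9 to 64.6% for A485 and from 57.3 to 71.7% for pyruvate, while the receptor counts stayed at 2 and 6. Over all genes, A485 calls were 1667 by limma, 1664 by edgeR, 2325 by DESeq2, 840 without the eBayes trend, 2584 with equal totals, 2486 with the replicate block and 117 to 844 with 1 library left out. Pyruvate calls were 6503, or 3736 with the trend removed and 9713 without a fold minimum, and MS-275 calls reached 419 with 1 library left out. Differences between effects were 4935, or 8949 with the replicate block and 7772 with block and trend removal. The causes were not tested.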
